A study of Mus musculus with 6 samples.

Results

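Ppp1r15a, Ppp1r15b, Chac1, Sesn2, Ddit4 and Eif4ebp1 encode proteins that restore or restrain protein synthesis and consume glutathione during stress of the endoplasmic reticulum (ER). These 6 genes, a set named by symbol with earlier results of these data known, were looked up among the 27998 genes of a single-cell RNA data set, and all 6 were present. The cells came from differentiated monolayers grown from mouse intestinal organoids of B6 mice from a Rosa26-floxed STOP-Cas9 x cmv-cre cross, in which Cre driven by cmv removes the stop before Cas9. That genotype is shared by every group. The groups had 2 libraries each: DMSO alone, tunicamycin (Tm) at 0.5 µg/ml for 13 h, and an equal Tm dose for 25 h. The drug inhibits N-linked glycosylation, which leaves glycoproteins misfolded in the ER. The 13 h set stood in DMSO before Tm, treatment began on day 3 of differentiation, and all sets were harvested on day 4. The tissue label names small intestine and the growth protocol names colonic spheroids, and it was not settled which of them holds.

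Counts of unique molecular identifiers (UMIs) were summed per library within the classes that the authors' cell names give. Of 5122 cells, 5026 were kept. Enterocytes numbered between 426 and 1046 per library with 7760117 to 17429023 UMIs, goblet cells between 75 and 109 with 1052495 to 1425291 UMIs, and tuft cells between 12 and 27. Libraries shared 12 cell barcodes, and such cells were kept apart by library. Levels are CPM (a gene's UMI count relative to all UMIs of the class in a library, with TMM scaling of libraries), so each is relative to the class's other RNA. Fold changes, standard errors (SE) and p-values come from the quasi-likelihood test of edgeR with Benjamini-Hochberg adjustment over all genes tested, and a gene passed at an adjusted p below 0.05. The labels of the classes were checked against markers, summed as CPM of total UMIs without TMM scaling. The 10 goblet markers summed to 79284 to 196523 CPM in goblet cells and to 2347 to 3922 CPM in enterocytes, with Retnlb at 0 in both. The 14 enterocyte markers summed to 1374 to 4120 CPM in goblet cells, where Fabp1, Car4, Aqp8 and Slc26a3 were at 0, and to 3805 to 7677 CPM in enterocytes. Both sums were lower in Tm libraries. Goblet markers in goblet cells summed to 183034 to 196523 CPM in DMSO, 113105 to 121257 CPM at 13 h and 79284 to 95631 CPM at 25 h, and enterocyte markers in enterocytes to 7426 to 7677, 4987 to 5251 and 3805 to 3863 CPM. Median mitochondrial shares per library were 4.40% to 4.45% in DMSO goblet cells, 3.275% to 3.69% at 13 h and 2.86% to 3.00% at 25 h, and 8.80% to 8.84%, 8.53% to 8.71% and 7.40% to 7.41% in enterocytes. The part of these shifts, and of the lower enterocyte numbers under Tm, in the results below was not tested.

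When misfolded proteins accumulate, the kinase PERK phosphorylates the translation factor eIF2alpha, which lowers protein synthesis in general and raises translation of the transcription factor ATF4 and, through it, production of CHOP (gene Ddit3). Ppp1r15a (GADD34), a target of this pathway, guides protein phosphatase 1 (PP1) to eIF2alpha and so reverses the phosphorylation, while Ppp1r15b (CReP) does the same in unstressed cells. Chac1 breaks down glutathione, the main small thiol of the cell. Sesn2 and Ddit4 (REDD1) inhibit the growth kinase mTORC1, and Eif4ebp1 encodes 4E-BP1, which binds the cap-binding protein eIF4E until mTORC1 phosphorylates it.

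Promoters of the genes were searched because ATF4 and CHOP bind composite elements of the forms TGATGNAA and TGACGNAA and related factors bind the cyclic AMP response element TGACGTCA. RefSeq promoter sequences on GRCm38.p6, from 250 bases before to 50 bases after the start, were held for 4 of the 6 genes, not including Ppp1r15b and Eif4ebp1. Both strands were searched, and no 8 bases can match more than 1 of the 3 motifs on the same strand. The 2 promoters with a match are shown, matches in capitals, 5′ to 3′ on the gene's strand.
Ppp1r15a, chr7:45526219-45526518, minus strand: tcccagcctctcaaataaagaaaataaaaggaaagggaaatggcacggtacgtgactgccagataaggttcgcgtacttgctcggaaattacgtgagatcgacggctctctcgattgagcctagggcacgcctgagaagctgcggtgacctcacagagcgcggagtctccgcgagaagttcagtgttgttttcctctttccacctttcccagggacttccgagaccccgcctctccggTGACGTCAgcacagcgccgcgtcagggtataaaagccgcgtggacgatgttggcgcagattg
Chac1, chr2:119350992-119351291, plus strand: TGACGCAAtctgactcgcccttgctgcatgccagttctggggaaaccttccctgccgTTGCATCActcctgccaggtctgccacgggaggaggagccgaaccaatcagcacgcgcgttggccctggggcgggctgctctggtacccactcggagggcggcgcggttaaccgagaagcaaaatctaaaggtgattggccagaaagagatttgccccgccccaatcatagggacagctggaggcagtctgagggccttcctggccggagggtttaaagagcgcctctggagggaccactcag
The Ppp1r15a promoter holds TGACGTCA at 12 to 5 bases before the start. The Chac1 promoter holds TGACGCAA, a match to TGACGNAA, at 250 to 243 bases before the start, and TTGCATCA, which is TGATGNAA on the other strand, at 193 to 186 bases before it. Among 32851 mouse promoters of the same length, 3.97% hold TGATGNAA, 1.59% hold TGACGNAA, 1.79% hold TGACGTCA and 7.18% hold any of these. The same windows of Sesn2 (chr4:132510407-132510706) and Ddit4 (chr10:59951721-59952020) held none of the 3 motifs. A match is a run of letters and was not tested for binding.

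Tm for 13 h raised all 6 genes in enterocytes and 5 of the 6 in goblet cells, and at 25 h it was 5 of 6 in each class. Chac1 had the largest fold change of the 6 in both classes at 13 h. Against DMSO, Ppp1r15b had the smallest change of the 6 in enterocytes at both times and was the gene not raised in goblet cells. The gene-wide background is large: at 13 h against DMSO, 23.8% of 11145 genes tested in enterocytes were higher (47.6% in either direction), and at 25 h 26.1% (50.3%). In goblet cells, 10.8% of 7839 genes were higher at 13 h (22.4% in either direction) and 15.8% at 25 h (31.8%). The median log2 fold change of the 6 genes was 1.11 at 13 h and 0.80 at 25 h in enterocytes, against 0.01 and 0.03 over all genes. In goblet cells the medians were 1.58 and 1.64, against -0.01 and -0.00 over all genes. The comparisons at 13 h and 25 h share the DMSO libraries. Scaling by total UMIs in place of TMM moved the median of all genes in goblet cells up to 0.16 at 13 h and 0.13 at 25 h, and moved the share of higher genes among those that passed to 68.4% and 63.8%, against 48.4% and 49.6% with TMM. The directions of the 6 genes within each class against DMSO did not change with it.

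**Figure D1:**
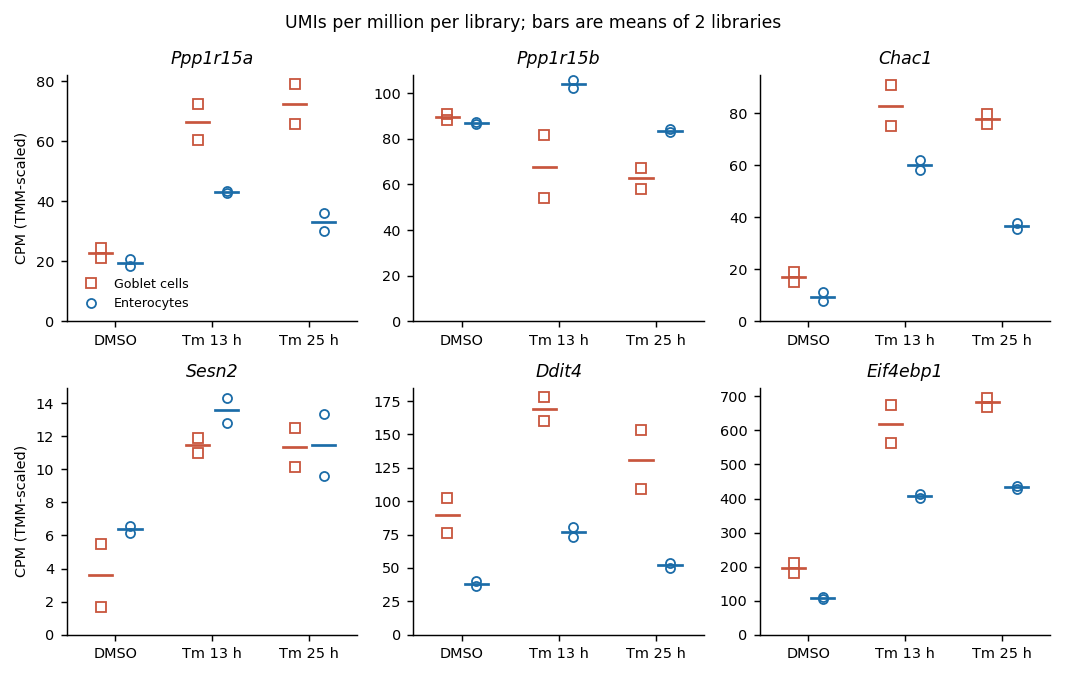
CPM of each gene (vertical axis, from 0) in DMSO, Tm 13 h and Tm 25 h libraries, with squares for goblet cells, circles for enterocytes and bars for the mean of 2 libraries. All genes but Ppp1r15b lie higher in both Tm groups than in DMSO, and in enterocytes Chac1 lies at 58.1 to 61.9 CPM at 13 h and 35.5 to 37.9 CPM at 25 h.

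Ppp1r15a (ENSMUSG00000040435; GRCm38 chr7:45522916-45526268, minus strand) had 18.3 and 20.9 CPM in the DMSO enterocyte libraries, 43.5 and 42.9 CPM at 13 h, and 30.0 and 36.1 CPM at 25 h. The 3 groups did not overlap, and the 25 h libraries lay between the others. Its log2 fold change was 1.14 ± 0.09 (SE) at 13 h against DMSO and 0.76 ± 0.10 at 25 h against DMSO, with edgeR adjusted p of 8.7e-08 and 1.6e-05. A single enterocyte held 28 of the 313 Ppp1r15a UMIs of 25 h replicate 2. In goblet cells the gene had 21.0 and 24.4 CPM in DMSO, 60.5 and 72.4 CPM at 13 h, and 79.1 and 65.7 CPM at 25 h. Here the 2 Tm groups overlapped and both lay above DMSO, with log2 fold changes of 1.54 ± 0.22 at 13 h and 1.67 ± 0.20 at 25 h (edgeR adjusted p 2.3e-05 and 2.7e-06). Exons of Ppp1r15a overlap those of Tulp2 on the opposite strand, and Tulp2 had 0 UMIs in all cells.

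Ppp1r15b (ENSMUSG00000046062; chr1:133131143-133139783, plus strand), the constitutive partner, moved little. It had 86.7 and 87.2 CPM in DMSO enterocytes, 102 and 106 CPM at 13 h, and 82.8 and 84.2 CPM at 25 h. The 13 h libraries were the high ones, with a log2 fold change of 0.26 ± 0.05 against DMSO (edgeR adjusted p 4.2e-04). At 25 h the difference from DMSO was -0.06 ± 0.05 and did not pass (edgeR adjusted p 0.37). In goblet cells its values were 90.7 and 88.1 CPM in DMSO, 54.1 and 81.6 CPM at 13 h, and 58.2 and 67.2 CPM at 25 h. In these TMM-scaled CPM every Tm library lay below both DMSO libraries. The fall passed at 25 h (log2 fold change -0.52 ± 0.17, edgeR adjusted p 0.030, where 16% of all genes were lower) and not at 13 h (-0.40 ± 0.18, adjusted p 0.12). These small changes depended on settings. With each cell thinned to 5000 UMIs, the enterocyte rise at 13 h no longer passed (adjusted p 0.11). The shares of thinned goblet cells with a Ppp1r15b UMI were 31.4% to 34.0% in DMSO and 22.2% to 37.1% at 13 h, which overlap. At 25 h they were 28.1% to 29.3%. The goblet fall at 25 h passed in 7 of 14 alternatives and not in DESeq2 (adjusted p 0.27) or on thinned counts (adjusted p 0.16), and without 13 h replicate 2 the goblet difference at 13 h passed at -0.72 (adjusted p 0.023). Exons of Ppp1r15b overlap those of Gm26616 on the opposite strand, which was not analysed here.

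The genes that act with these subunits moved in both directions. The list held kinases, eIF2 and eIF2B subunits, PP1 catalytic subunits, their regulators and the separate factor Eif2a. Of its 19 genes tested in enterocytes, 9 were higher and 3 lower at 13 h, and 8 were higher and 3 lower at 25 h. Of all genes in enterocytes, 47.6% passed in either direction at 13 h and 50.3% at 25 h. Dnajc3, a chaperone that also inhibits PERK, rose by a log2 fold change of 2.24 ± 0.05 at 13 h and 1.57 ± 0.05 at 25 h. Eif2s1, which encodes eIF2alpha itself, rose by 0.56 ± 0.07 and 0.63 ± 0.07. Ppp1cc, a catalytic subunit of PP1, fell by 0.41 and 0.34 on the log2 scale, and Nck1, an adaptor, fell by 0.41 and 0.62. In goblet cells 3 of 16 were higher and 2 lower at 13 h, and 5 were higher and 3 lower at 25 h, with Dnajc3 at 1.33 ± 0.13 and 1.07 ± 0.13. Of all genes in goblet cells, 22.4% passed in either direction at 13 h and 31.8% at 25 h. Over the alternatives, between 5 and 10 of the enterocyte genes were higher at 13 h and between 4 and 8 at 25 h, and in goblet cells between 1 and 6 and between 1 and 7. A list of 14 ATF4, CHOP and other ER stress genes included Hspa5, Xbp1 and Herpud1. All 14 were higher in both classes and at both times. Of all genes, 23.8% were higher in enterocytes at 13 h and 26.1% at 25 h, and 10.8% and 15.8% in goblet cells. Ddit3 had a log2 fold change of 4.11 ± 0.10 at 13 h and 3.34 ± 0.10 at 25 h in enterocytes, and Atf4 1.92 ± 0.05 and 1.77 ± 0.05.

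Chac1 (ENSMUSG00000027313; chr2:119351229-119354381, plus strand), whose promoter is printed above, had 7.75 and 11.2 CPM in DMSO enterocytes, 61.9 and 58.1 CPM at 13 h, and 37.9 and 35.5 CPM at 25 h. The groups were far apart and did not overlap. The fold change was 6.33-fold at 13 h against DMSO (log2 2.66 ± 0.11, edgeR adjusted p 1.2e-10) and 3.87-fold at 25 h against DMSO (log2 1.95 ± 0.13, adjusted p 1.4e-08). Goblet cells had 15.1 and 18.9 CPM in DMSO, 75.1 and 90.7 CPM at 13 h, and 75.8 and 79.7 CPM at 25 h. Both Tm groups lay above DMSO and overlapped each other, at 4.84-fold for 13 h (log2 2.28 ± 0.21, edgeR adjusted p 1.8e-07) and 4.53-fold for 25 h (log2 2.18 ± 0.21, adjusted p 1.1e-07). These goblet levels rest on 42 Chac1 UMIs in DMSO, 181 at 13 h and 214 at 25 h. Chac1 passed in every alternative in both classes and at both times.

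Other glutathione genes were split. In enterocytes 5 of 17 genes of glutathione synthesis, use and breakdown were higher at 13 h and 9 were lower, with the same counts at 25 h. The all-gene shares that passed in either direction there were 47.6% at 13 h and 50.3% at 25 h. The largest rises among those named were Slc7a11 and Slc3a2, the subunits of the cystine importer, at log2 fold changes of 2.74 ± 0.08 and 2.34 ± 0.06 at 13 h and 2.19 ± 0.09 and 2.17 ± 0.06 at 25 h. Gss, glutathione synthetase, rose by 0.57 ± 0.05 and 0.68 ± 0.06. Gclm, the modifier subunit of the enzyme for the preceding step, fell by 0.79 at 13 h and 0.74 at 25 h on the log2 scale, and Glrx, glutaredoxin, by 1.07 and 0.81. In goblet cells 3 of 12 were higher and 2 lower at 13 h, and 4 were higher and 2 lower at 25 h. The all-gene shares in goblet cells were 22.4% at 13 h and 31.8% at 25 h. There Slc3a2 rose by 2.33 ± 0.11 and 2.20 ± 0.11, and Glrx fell by 1.45 and 1.20. The list as a whole had a median log2 fold change of -0.35 at 13 h in enterocytes and -0.08 in goblet cells.

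Sesn2 (ENSMUSG00000028893; chr4:132492032-132510501, minus strand) had few UMIs. It had 6.58 and 6.17 CPM in DMSO enterocytes, 12.8 and 14.3 CPM at 13 h, and 13.3 and 9.57 CPM at 25 h. Both Tm groups lay above DMSO, and the 25 h libraries spread across the lower edge of the 13 h range. The log2 fold change was 1.09 ± 0.14 at 13 h (edgeR adjusted p 2.6e-05) and 0.84 ± 0.16 at 25 h (adjusted p 7.1e-04), and on thinned counts the 25 h change was 0.21 and did not pass (adjusted p 0.64). Goblet cells held 9 Sesn2 UMIs in both DMSO libraries together, 25 at 13 h and 31 at 25 h. That is 1.68 and 5.50 CPM in DMSO, 11.9 and 11 CPM at 13 h, and 10.1 and 12.5 CPM at 25 h. The goblet log2 fold changes of 1.62 ± 0.53 at 13 h and 1.60 ± 0.51 at 25 h passed (edgeR adjusted p 0.033 and 0.022). Without DMSO replicate 1, the lower of the pair, they were 1.04 and 1.01 and did not pass (adjusted p 0.26 and 0.22). They also did not pass without either 13 h library at 13 h, or at 25 h without 25 h replicate 2 or with DESeq2 (adjusted p 0.22). At 13 h DESeq2 gave Sesn2 no adjusted p, and the thinned goblet counts were too low to test. Gm12981 overlaps Sesn2 on the same strand without shared exons and had 29 UMIs in all cells.

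Ddit4 (ENSMUSG00000020108; chr10:59949669-59951834, minus strand) had 36.3 and 40.2 CPM in DMSO enterocytes, 73.1 and 80.8 CPM at 13 h, and 50.4 and 53.7 CPM at 25 h. Its groups did not overlap, with 25 h between the others. The log2 fold change was 1.01 ± 0.07 at 13 h and 0.45 ± 0.08 at 25 h (edgeR adjusted p 2.7e-08 and 2.3e-04). In goblet cells Ddit4 had 76.5 and 102 CPM in DMSO, 160 and 178 CPM at 13 h, and 109 and 153 CPM at 25 h. The highest DMSO library and the lowest 25 h library were close to each other. The change was 0.92 ± 0.17 at 13 h (edgeR adjusted p 5.6e-04) and 0.54 ± 0.17 at 25 h (adjusted p 0.021). At 25 h in goblet cells it did not pass with DESeq2 (adjusted p 0.14), on thinned counts (0.077), without DMSO replicate 1 (0.28, log2 fold change 0.35) or without 25 h replicate 2 (0.32, log2 fold change 0.28).

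The amino acid sensing and TSC genes around these inhibitors were mixed. Of 24 genes of the GATOR complexes, Rag GTPases, Ragulator and their regulators tested in enterocytes, 3 were higher and 6 lower at 13 h, and 4 were higher and 10 lower at 25 h, against 47.6% and 50.3% of all genes that passed in either direction. Over the alternatives 2 to 4 were higher at each time, with 3 to 8 lower at 13 h and 7 to 12 lower at 25 h. Castor2, of the family that senses arginine for mTORC1, fell by 1.53 at 13 h and 1.23 at 25 h on the log2 scale. Sesn1, a paralogue of Sesn2, fell by 0.73 at 13 h. Seh1l, a subunit of GATOR2 and of the nuclear pore, rose by 0.69 ± 0.07 and 0.59 ± 0.08. Among 20 genes of the TSC and mTOR complexes and their regulators, 8 were higher and 3 lower at each time in enterocytes. Over the alternatives 4 to 8 were higher and 2 to 4 lower at 13 h, and 6 to 8 higher and 1 to 4 lower at 25 h. Tsc1, a subunit of the TSC complex that restrains mTORC1, fell by 0.68 at 13 h and by 0.53 at 25 h on the log2 scale, and its 25 h call did not hold on thinned counts (adjusted p 0.40), with at most 10% mitochondrial UMIs (0.11) or when 25 h replicate 1 was left out (0.051). Akt1, an upstream kinase, rose by 0.65 ± 0.09 at 13 h and 0.81 ± 0.09 at 25 h. Akt1s1 (PRAS40), an inhibitor within mTORC1, rose by 0.58 ± 0.08 at 25 h, as did Txnip, a binding partner of REDD1, by 0.58 ± 0.04. In goblet cells 22.4% of all genes passed in either direction at 13 h and 31.8% at 25 h. There 1 of 17 sensing genes was higher and 1 lower at 13 h, and 2 were higher and 2 lower at 25 h. Of 19 TSC and mTOR genes in goblet cells, 1 passed at 13 h (Txnip, 0.45 ± 0.11) and 4 at 25 h, each of them higher. The mTOR inhibitor Deptor was among these at 1.39 ± 0.25, and its call did not hold on thinned counts (adjusted p 0.075). In enterocytes Deptor was at -0.29 ± 0.10 at 13 h (adjusted p 0.028, and 0.24 with DESeq2) and at 0.45 ± 0.10 at 25 h (adjusted p 0.0016). Over the alternatives, the TSC and mTOR genes that were higher in goblet cells numbered 0 to 6 at 13 h and 1 to 5 at 25 h.

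Eif4ebp1 (ENSMUSG00000031490; chr8:27260329-27276674, plus strand) rose in both classes at both times. Enterocytes had 105 and 112 CPM in DMSO, 415 and 403 CPM at 13 h, and 429 and 436 CPM at 25 h. The Tm libraries were all far above DMSO, at 3.77-fold for 13 h (log2 1.91 ± 0.05, edgeR adjusted p 8.2e-13) and 3.99-fold for 25 h (log2 1.996 ± 0.049, adjusted p 1.2e-12). Goblet cells had 210.0 and 180.1 CPM in DMSO, 564 and 675 CPM at 13 h, and 695 and 669 CPM at 25 h, with no overlap between DMSO and Tm. Those are log2 fold changes of 1.67 ± 0.12 and 1.81 ± 0.12 (edgeR adjusted p 7.2e-09 and 4.3e-10). The change of Eif4ebp1 against DMSO passed in every alternative in both classes.

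The partners of 4E-BP1 at the mRNA cap changed by smaller amounts. Among 17 such genes in enterocytes, 3 were higher and 2 lower at 13 h, and 7 were higher and 4 lower at 25 h, where 47.6% and 50.3% of all genes passed in either direction. Eif4e, its direct target, rose by 0.37 ± 0.06 on the log2 scale at 13 h. Eif4g2, a relative of the scaffold eIF4G without an eIF4E site, rose by 0.43 ± 0.04 at 13 h and 0.21 ± 0.04 at 25 h, and the helicase cofactor Eif4b by 0.36 ± 0.05 at 25 h. Mknk2, a kinase of eIF4E, fell by 0.58 at 13 h and 0.47 at 25 h. In goblet cells 2 of 17 were higher and 1 lower at 13 h, and 4 were higher and 1 lower at 25 h, with Mknk2 lower by 0.95 on the log2 scale at 25 h. Over all genes in goblet cells, 22.4% passed in either direction at 13 h and 31.8% at 25 h. The list medians in enterocytes were -0.02 at 13 h and 0.05 at 25 h. Over the alternatives, the cap genes that were higher in enterocytes numbered 2 to 5 at 13 h and 3 to 7 at 25 h.

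**Figure D2:**
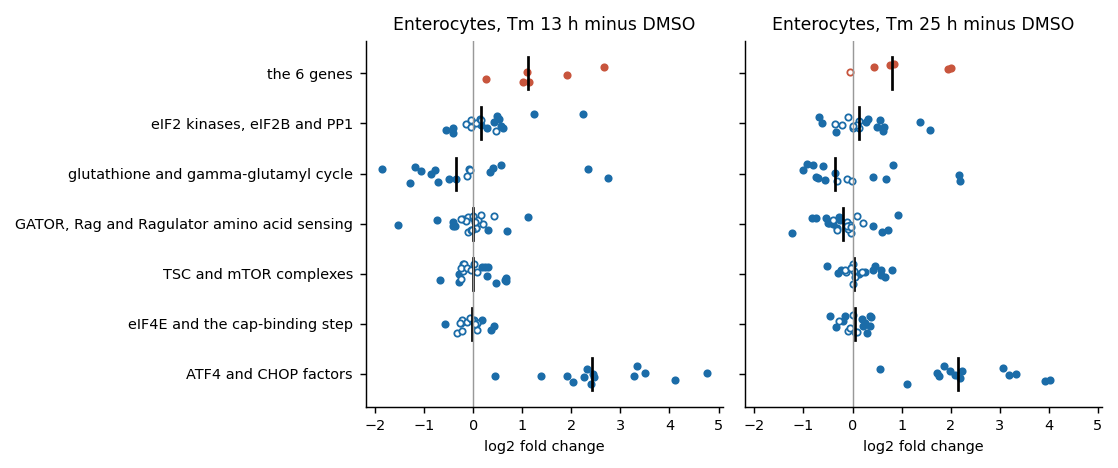
Log2 fold change (horizontal axis) of every tested gene of each list in enterocytes, at 13 h and at 25 h against DMSO, with filled points for an adjusted p below 0.05, open points for the rest and black bars for list medians. The 6 genes have medians of 1.11 and 0.80, while the TSC and mTOR list and the cap-binding list have medians near 0; Ggt1 at 25 h, which had 0 UMIs in both 25 h libraries, is outside the axis.

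Between 25 h and 13 h, 4 of the 6 genes fell in enterocytes, where 10.9% of all genes were lower, 10.4% higher and 21.4% passed in either direction. Chac1 fell by 0.71 ± 0.10 on the log2 scale (edgeR adjusted p 1.3e-04), Ddit4 by 0.56 ± 0.07 (7.6e-05), Ppp1r15a by 0.38 ± 0.09 (0.0073) and Ppp1r15b by 0.32 ± 0.05 (5.1e-04). Sesn2 at -0.25 ± 0.15 (adjusted p 0.26) and Eif4ebp1 at 0.08 ± 0.05 (adjusted p 0.24) did not pass. The fall of Ppp1r15a did not pass when 25 h replicate 1 was left out (-0.26, adjusted p 0.079) or with all classes summed (-0.11, adjusted p 0.30), and that of Ppp1r15b did not pass on thinned counts (adjusted p 0.066). In goblet cells 0 of the 6 passed between 25 h and 13 h with edgeR and 0 with DESeq2, and 1, Ddit4 at -0.38 ± 0.16, had an unadjusted p below 0.05. Of all genes, 3.5% passed in that comparison, 2.03% higher and 1.47% lower.

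**Figure D3:**
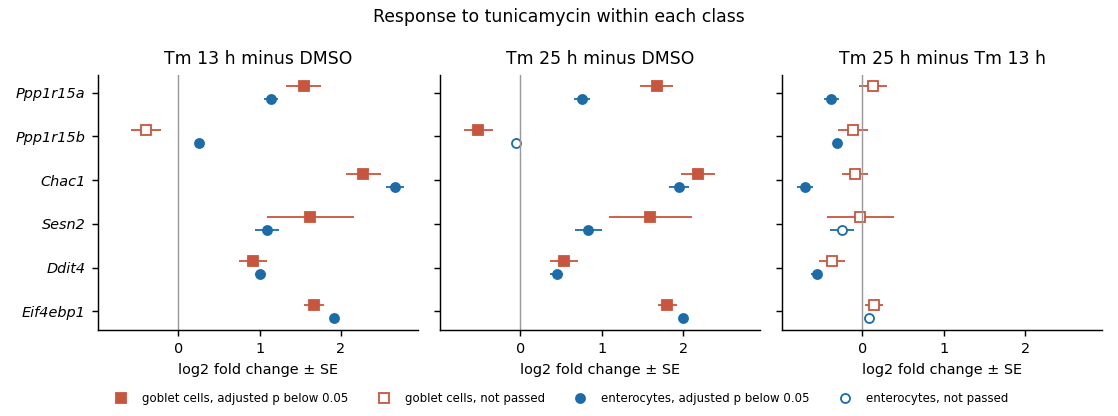
Log2 fold change ± SE (horizontal axis, the same in each panel) of each gene in goblet cells (squares) and enterocytes (circles), for 13 h against DMSO, 25 h against DMSO and 25 h against 13 h, with filled symbols for an adjusted p below 0.05. In the panel of 25 h against 13 h, Chac1 lies at -0.09 in goblet cells and at -0.71 in enterocytes.

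Goblet cells and enterocytes of the same libraries were compared with each library as a block. In Tm 13 h libraries 4 of the 6 genes were higher in goblet cells than in enterocytes and 1 lower, as in Tm 25 h libraries, and in DMSO libraries 3 were higher. Over all genes, goblet cells were higher for 17% and passed in either direction for 35.1% of 10458 genes in DMSO, for 12.5% and 29.1% at 13 h, and for 14.8% and 32.4% at 25 h. They were lower for 16.7% of genes at 13 h and 17.6% at 25 h. Ddit4 was higher in goblet cells throughout, by a log2 difference of 1.31 ± 0.13 in DMSO, 1.18 ± 0.11 at 13 h and 1.37 ± 0.11 at 25 h. Eif4ebp1 was higher by 0.93 ± 0.10, 0.64 ± 0.08 and 0.70 ± 0.08. Both genes passed in every alternative in each group. Chac1 was higher by 0.92 ± 0.26 in DMSO (edgeR adjusted p 0.0041), 0.51 ± 0.13 at 13 h (0.0024) and 1.13 ± 0.13 at 25 h (8.3e-09). The DMSO difference of Chac1 did not pass on thinned counts (adjusted p 0.16) or without DMSO replicate 1 (0.091) or replicate 2 (0.071), and the 13 h one not without 13 h replicate 2 (0.27). Scaling by total UMIs moved the median of all genes between the classes in DMSO to -0.18, against -0.02 with TMM, and the share higher in goblet cells among genes that passed to 33.5%, against 48.4%.

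Under Tm the subunits of the eIF2alpha phosphatase differed between the classes in opposite directions. Ppp1r15a did not differ past the threshold in DMSO (log2 goblet minus enterocyte difference 0.30 ± 0.22, edgeR adjusted p 0.32) and was higher in goblet cells at 13 h (0.67 ± 0.15, adjusted p 5.9e-04) and at 25 h (1.19 ± 0.14, adjusted p 1.1e-08). Ppp1r15b also did not pass in DMSO (0.13 ± 0.12, adjusted p 0.46, and -0.038 with scaling by total UMIs) and was lower in goblet cells at 13 h (-0.57 ± 0.13, adjusted p 6.3e-04) and at 25 h (-0.37 ± 0.13, adjusted p 0.022). The 13 h difference of Ppp1r15a did not pass on thinned counts (adjusted p 0.47) or when 13 h replicate 2 was left out (0.11), and that of Ppp1r15b not without 13 h replicate 1 (0.19). The 25 h difference of Ppp1r15b passed in 8 of 13 alternatives. Sesn2 did not differ past the threshold between the classes in any group, with differences of -0.71 ± 0.47 in DMSO, -0.20 ± 0.31 at 13 h and 0.01 ± 0.30 at 25 h.

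**Figure D4:**
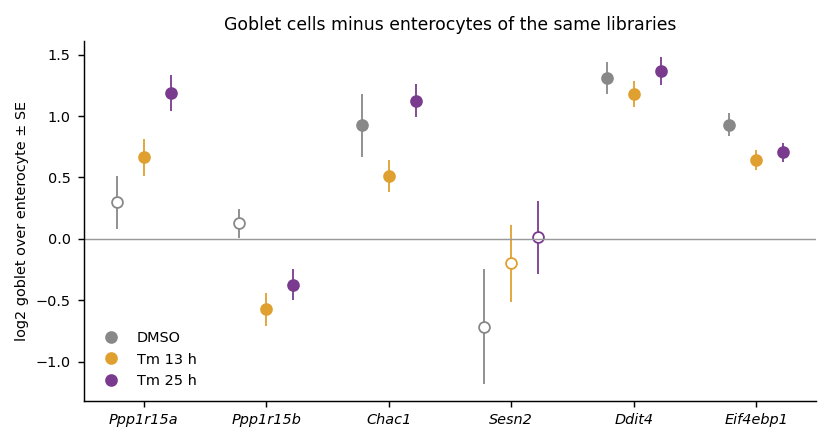
Log2 difference of goblet cells over enterocytes ± SE (vertical axis) for each gene in DMSO (grey), Tm 13 h (orange) and Tm 25 h (purple) libraries, with filled points for an adjusted p below 0.05. Ppp1r15a lies at 0.30, 0.67 and 1.19 in that order, Ppp1r15b crosses 0, and Ddit4 stays between 1.18 and 1.37.

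The difference between the classes in their response was itself tested. For 13 h against DMSO, 1 of the 6 genes passed, where 4.81% of all genes did, 3.33% with a response lower in goblet cells. This was Ppp1r15b, with a response lower in goblet cells than in enterocytes by 0.70 ± 0.18 on the log2 scale (edgeR adjusted p 0.011). For 25 h against DMSO, 1 of the 6 passed, where 7.06% of all genes did, 2.55% with a higher and 4.5% with a lower response in goblet cells. This was Ppp1r15a, with a response higher in goblet cells by 0.89 ± 0.25 (adjusted p 0.017). The first passed in 7 of 13 alternatives and the second in 8 of 13, and neither passed with DESeq2 or on thinned counts. For 25 h against 13 h, 0 of the 6 passed with edgeR and 0 with DESeq2, where 0.516% of all genes passed with edgeR. In that comparison 2 had an unadjusted edgeR p below 0.05, Chac1 with a goblet minus enterocyte difference of 0.61 ± 0.18 (adjusted p 0.14) and Ppp1r15a with 0.52 ± 0.20 (adjusted p 0.36). Scaling by total UMIs moved the share of higher genes among those that passed to 59.0% at both times, against 30.8% at 13 h and 36.2% at 25 h with TMM.

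Shares of cells with a UMI were compared with every cell thinned to 5000 UMIs. Chac1 was seen in 2.71% and 3.71% of DMSO enterocytes, in 21.6% and 22.5% after 13 h of Tm, and in 18.2% and 12.2% after 25 h of Tm. Exact binomial 95% intervals ran from 1.81% to 3.89% and 2.64% to 5.06% in the DMSO libraries, 18.5% to 24.8% and 19.5% to 25.7% after 13 h of Tm, and 14.6% to 22.2% and 9.29% to 15.6% after 25 h of Tm, and cover counting error only. Without thinning these shares were 6.60% and 7.14%, 52.3% and 50.4%, and 40.4% and 40.3%. Positive DMSO enterocytes could hold several UMIs. The variance of Chac1 counts over their mean, on thinned cells, was 1.78 and 2.29 in the DMSO libraries, 1.48 and 1.26 after 13 h of Tm, and 1.32 and 1.19 after 25 h of Tm, and single DMSO enterocytes held up to 10 and 13 UMIs before thinning. Goblet cells with a Chac1 UMI were 8.25% and 4.90% in the DMSO libraries, 33.3% and 42.9% after 13 h of Tm, and 22.9% and 28.0% after 25 h of Tm. The gap between the Tm groups depended on depth. With cells thinned to 3000 UMIs, goblet shares were 4.76% to 5.50% in DMSO, 19.5% to 22.7% at 13 h and 18.6% to 27.6% at 25 h. The Tm groups overlapped there. Unthinned goblet shares were 12.4% to 16.5%, 61.0% to 66.7% and 58.1% to 59.2%.

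Eif4ebp1 was seen in most cells under Tm. Thinned shares in enterocytes were 32.5% and 32.8% in the DMSO libraries, 80.8% in each library after 13 h of Tm, and 82.5% and 83.1% after 25 h of Tm. In goblet cells they were 49.5% and 48.0% in the DMSO libraries, 81.9% and 94.3% after 13 h of Tm, and 96.9% and 93.9% after 25 h of Tm. Unthinned, they were between 59.7% and 63.1% in DMSO enterocytes and between 95.8% and 97.9% in Tm enterocytes. Ppp1r15a was seen in 7.22% and 11.8% of DMSO goblet cells, 27.8% and 21.4% after 13 h of Tm and 32.3% and 34.1% after 25 h of Tm. In enterocytes its shares were 8.42% and 9.08% in the DMSO libraries, 20.8% and 18.1% after 13 h of Tm and 13.2% and 11.5% after 25 h of Tm. The order of the classes after 25 h of Tm was thus the same as in CPM, and the unthinned shares there were 60.2% and 59.3% in goblet cells and 36.9% and 39.4% in enterocytes. Thinned shares of Ddit4 in enterocytes were 15.3% and 15.04% in the DMSO libraries, 28.6% and 33.6% after 13 h of Tm, and 23.6% and 21.2% after 25 h of Tm, and those of Ppp1r15b lay between 33.3% and 41.0% in all 6 libraries. Sesn2 was seen in 2.61% and 3.52% of DMSO enterocytes, 5.57% and 6.11% after 13 h of Tm and 4.95% and 2.71% after 25 h of Tm, so that the 25 h libraries overlapped DMSO. No class of these data is known to lack the genes, so the share that free RNA gives was not measured. Between 2 and 8 goblet cells and between 2 and 13 enterocytes per library were too shallow to thin, and median depths before thinning were 11573 to 13438 UMIs in goblet cells and 14757 to 17862 UMIs in enterocytes.

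**Figure D5:**
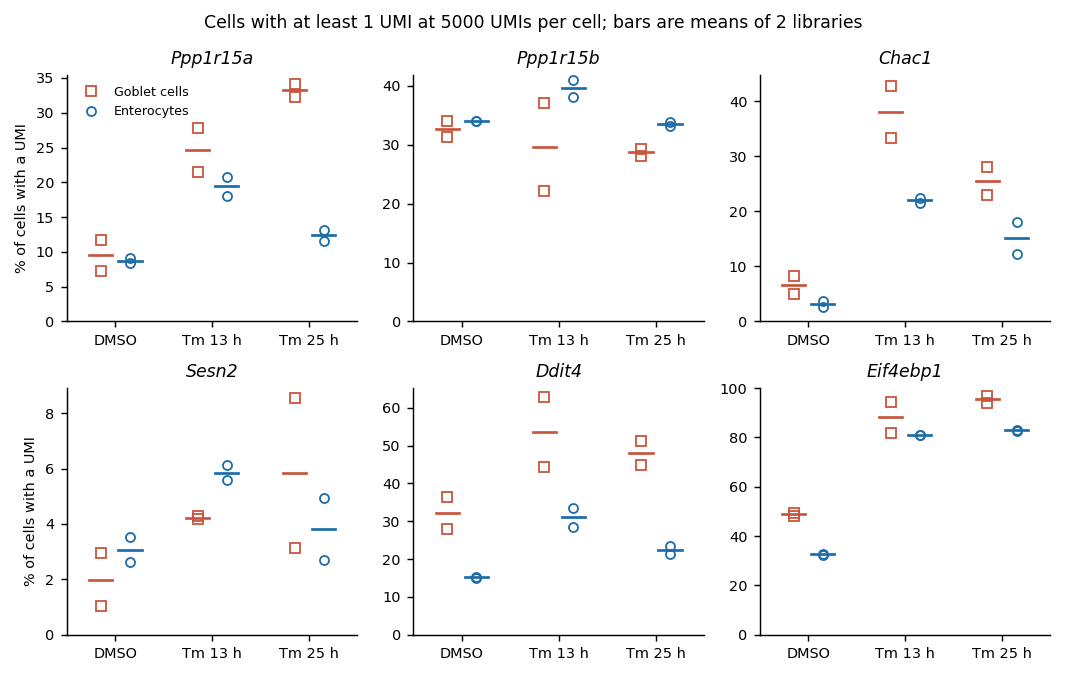
Percent of cells with at least 1 UMI of each gene after thinning each cell to 5000 UMIs (vertical axis, from 0), per library in DMSO, Tm 13 h and Tm 25 h, with squares for goblet cells, circles for enterocytes and bars for means of 2 libraries. In enterocytes every Tm library lies above both DMSO libraries for Chac1, Eif4ebp1, Ppp1r15a and Ddit4, and Sesn2 stays under 9% in every library.

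The tuft class had 12 to 27 cells per library and is given as levels without a test, in CPM of total UMIs. Ppp1r15a had 73.7 and 56.6 CPM in DMSO, 74.4 and 117 CPM at 13 h, and 182 and 194 CPM at 25 h. Chac1 had 14.7 and 18.9 CPM in DMSO, 72.8 and 110 CPM at 13 h, and 114 and 55.6 CPM at 25 h. For both genes every 25 h library lay above both DMSO libraries. Eif4ebp1 had 393 and 267 CPM in DMSO, 642 and 759 CPM at 13 h, and 722 and 792 CPM at 25 h, again without overlap between DMSO and Tm. Ddit4 spread from 151 to 157 CPM in DMSO, 180 to 183 CPM at 13 h and 154 to 233 CPM at 25 h, so that DMSO and 25 h overlapped. Ppp1r15b overlapped among all groups, from 30.6 to 97.3 CPM, and Sesn2 rested on 1 to 16 UMIs per library. The 9 tuft markers summed to 81.8 to 87.3 CPM in DMSO tuft cells, 320 to 794 CPM at 13 h and 175 to 697 CPM at 25 h. Markers of other cell types were also present and shifted with treatment. The 8 enteroendocrine markers summed to 1569 to 3984 CPM in DMSO, 141 to 361 CPM at 13 h and 401 to 1170 CPM at 25 h, with Chgb, Gcg, Cck and Tph1 at 0. The 10 goblet markers summed to 2672 to 6836, 859 to 1853 and 425 to 4088 CPM in the same order, and the 14 enterocyte markers to 1176 to 5088, 663 to 840 and 547 to 1614 CPM. The part of these shifts in the tuft levels was not tested.

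For each gene, the 3 genes with the most similar profile over the 6 enterocyte libraries were taken from 5056 genes of at least 20 CPM, by the distance between log2(CPM + 1) values centred per gene. This describes 6 points that fall into 3 groups. For Chac1 these were Slc7a1, an importer of cationic amino acids, Herpud1, an ER-associated degradation protein, and Slc7a11, at distances of 0.29, 0.33 and 0.38. Ppp1r15a was closest to Sqstm1, an autophagy receptor, at 0.14, then to Sec61b, a translocon subunit, and Uso1, a vesicle tether. Ddit4 was closest to Ddost, a subunit of the N-glycan transferase, at 0.13, then to Gmppa and Alg2. Eif4ebp1 was closest to Hspa9, a mitochondrial chaperone, at 0.25, then to Sil1 and Xbp1. Ppp1r15b was closest to Cd164 at 0.04, and Sesn2 to Ddx50 at 0.26.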

How the data were processed

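The libraries were 10x Genomics 3' V2 single-cell libraries, 2 per group. The authors deposited raw UMI counts per gene and cell, made with Cell Ranger on mm10 per the submitters' processing notes. The sources used here give no version, cell filter or method of naming classes, and classes were taken from the deposited cell names. Cells needed at least 1000 UMIs, 500 genes and no more than 25% mitochondrial UMIs (5026 of 5122 passed, all 96 removed by the mitochondrial limit). No doublet caller was run, and cells under 40000 UMIs were an alternative. Counts were summed per library and class and tested with edgeR 4.0.16 (TMM scaling, filterByExpr, quasi-likelihood F test, R 4.3.3), with group as the only term over 6 libraries, or with library as a block for comparisons between classes. p-values were adjusted by Benjamini-Hochberg over 11145 genes in enterocytes, 7839 in goblet cells and 10458 in both. DESeq2 1.42.0 and other alternatives are reported at the end. Gene IDs were matched to GENCODE vM21 symbols for 27645 of 27998. The labels call the libraries biological replicates. The scripts were tested on simulated data. The named genes were the 6 genes, Atf4, Ddit3 and Hspa5, up to 3 genes of each pathway list per comparison and direction (lowest adjusted p, mean of at least 10 CPM), and the 3 nearest profiles per gene. The 6 genes and all lists were chosen with earlier results of these data known. Of the listed pathway genes, 2 were not measured.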

Additional observations from a re-analysis of the deposited data

Results flagged for a closer look

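Differences between goblet cells and enterocytes in the same contrast met the rule for a closer look in 6 cases, by the class by group term of edgeR's quasi-likelihood test. At 13 h against DMSO, Ppp1r15b responded lower in goblet cells, by -0.70 on the log2 scale (adjusted p 0.011). At 25 h against DMSO, Ppp1r15a responded higher in goblet cells, by 0.89 (adjusted p 0.017). These 2 results rest on 2 libraries per group and passed in 7 and 8 of 13 alternatives.

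The same test gave Atf4 a goblet minus enterocyte response of -0.58 at 13 h (adjusted p 0.0010) and -0.62 at 25 h (adjusted p 2.9e-04). These passed in 10 of 13 alternatives at 13 h and in 12 of 13 at 25 h. Atf4 rose in both classes, by 1.37 in goblet cells and 1.92 in enterocytes at 13 h. Hspa5, which encodes the ER chaperone BiP, had response differences of -1.75 at 13 h (adjusted p 4.7e-16) and -1.62 at 25 h (adjusted p 9.6e-15). Both differences of Hspa5 passed in 13 of 13 alternatives. In DMSO libraries Atf4 and Hspa5 were already higher in goblet cells than in enterocytes, by 1.11 and 1.64 on the log2 scale.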

How the results depend on the processing

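Of 72 results for the 6 genes, 41 passed the test, 26 of them in every alternative run. Counts of genes that passed were lower with DESeq2, at 3349 for enterocytes at 13 h against DMSO, 1226 for enterocytes at 25 h against 13 h, 762, 1123 and 164 in goblet cells (13 h, 25 h, 25 h against 13 h), 2291, 1785 and 2000 between classes (DMSO, 13 h, 25 h) and 246, 354 and 32 for the response differences. With cells thinned to 5000 UMIs, which leaves fewer counts, they were 3315, 3398 and 1002 in enterocytes, 924, 1328 and 163 in goblet cells, 1730 and 2046 between classes at 13 h and 25 h, and 242, 370 and 14 for the response differences. Without a filter on low counts, 97 genes passed for the response at 25 h against 13 h. For DESeq2, thinning and the missing filter the cause was not tested. Of the 6 genes, 3 passed in goblet cells at 25 h with DESeq2 and 3 on thinned counts. None (0) passed for the response difference at 13 h with DESeq2, total UMIs or thinning, or at 25 h with DESeq2 or thinning.

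Leaving out 1 library at a time gave 4106 to 5472, 4551 to 5576 and 1602 to 2089 genes in enterocytes (5307, 5601 and 2380 with all libraries). Goblet cells gave 1033 to 1770, 1681 to 2522 and 139 to 249 (1754, 2491 and 274), the class differences 2268 to 3663, 1849 to 3044 and 2142 to 3330 (3666, 3048 and 3387), and the response differences 224 to 527, 373 to 708 and 13 to 52 (503, 738 and 54). Of the 6 genes, 3 to 6 passed in goblet cells at 25 h, 4 to 5 at 13 h, 3 to 4 in enterocytes at 25 h against 13 h, 2 to 3, 3 to 5 and 4 to 5 between classes, and 0 to 1 for each response difference against DMSO.

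Directions reversed in 24 cases, none of a result that passed. Eif4ebp1 in enterocytes at 25 h against 13 h reversed with at most 10% mitochondrial UMIs (-0.00026). With 1 library left out, goblet cells at 25 h against 13 h gave -0.38 to 0.21 for Ppp1r15b, -0.22 to 0.047 for Chac1, -0.18 to 0.12 for Sesn2 (0.037 without 13 h replicate 1) and -0.021 to 0.27 for Ppp1r15a. Between classes, Ppp1r15b in DMSO reversed with total UMIs (-0.038) and Sesn2 at 13 h with at most 10% mitochondrial UMIs (0.073). Sesn2 at 25 h reversed with total UMIs (-0.023), no filter (-0.032) and cells under 40000 UMIs (-0.057), and ran from -0.35 to 0.45 with 1 library left out. Response differences at 13 h reversed for Ppp1r15a on thinned counts (-0.063) and Ddit4 with total UMIs (0.024), and left-out libraries gave -0.080 to 1.72 for Sesn2 and -0.21 to 0.070 for Ddit4. At 25 h Ddit4 reversed on thinned counts (-0.16) and ran from -0.14 to 0.35 with 1 library left out (-0.049 without DMSO replicate 1). At 25 h against 13 h Sesn2 reversed with at most 10% mitochondrial UMIs (-0.035), and left-out libraries gave -0.049 to 0.51 for Ppp1r15b, -0.14 to 0.63 for Sesn2, -0.014 to 0.38 for Ddit4 and -0.088 to 0.22 for Eif4ebp1. The cause was not tested.

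The labels do not say whether a replicate number is shared between groups. Deviations of same-numbered libraries from their group means correlated at -0.03 to -0.01 over all genes tested. A shared culture or batch was not tested otherwise. With the replicate number as a block, 5114, 5444 and 2196 genes passed in enterocytes and 1757, 2469 and 291 in goblet cells, and the same number of the 6 genes passed as without it. Comparisons between classes already had the library as a block. Depth limits Sesn2 in goblet cells, where it had 9 UMIs in DMSO.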
